A study of Rattus norvegicus with 48 samples.

Results

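Cocaine was compared with its absence in rat brain cultures that had all received the HIV-1 protein Tat and the channel blocker senicapoc. The comparison rests on 6 RNA-seq libraries out of 48 in the series: 3 of the group Tat-Cocaine-Senicapoc and 3 of the group Tat-Senicapoc, taken as labelled. Primary mixed cultures were made from 18-day Sprague-Dawley rat fetuses and used at DIV 21. Both groups were given Tat at 6 ng/ml with senicapoc at 1 µM for 48 h. The Tat-Cocaine-Senicapoc cultures then received cocaine at 25 µM for 24 h, and the Tat-Senicapoc cultures a control treatment. Among the other groups were cultures given amlexanox at 25 µM, tazemetostat at 3 µM or the itaconate ester 4OI at 250 µM. Control, Cocaine, Tat and Tat-Cocaine cultures had no such compound. Every gene of the deposited table entered the comparison, 30211 in all, of which 15890 had at least 0.5 CPM (counts scaled to the library total) in at least 3 of the 48 libraries and were tested. The labels do not say whether the 3 cultures of a group came from separate litters, so that p-values measure the spread between these cultures.

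Senicapoc blocks KCa3.1, the calcium-activated potassium channel encoded by Kcnn4, which microglia use to hold their membrane potential. Cocaine blocks the plasma membrane transporters of dopamine, noradrenaline and serotonin. Neurons answer synaptic activity and calcium entry by switching on immediate-early genes, many of them transcription factors such as Fos and Npas4, largely through the factors CREB and SRF. These in turn drive later genes for secreted factors, receptors and synaptic proteins, and the levels of both sets are widely read as a trace of recent neuronal activity.

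The depth was 22.6 to 24.9 M reads on genes in the Tat-Cocaine-Senicapoc and 19.5 to 22.3 M in the Tat-Senicapoc libraries. Pearson correlations between libraries of a group were 0.989 to 0.993 and 0.985 to 0.995. On the first principal component, which held 58.7% of the variance, the Tat-Senicapoc libraries lay at −44.5, −3.22 and −3.89. The Tat-Cocaine-Senicapoc libraries lay at 13.8, 33.8 and 4.04, so that the groups did not overlap. Tat-Senicapoc replicate 1 stood furthest out, with Tat-Cocaine-Senicapoc replicate 2 at the other end. Tat-Senicapoc replicate 1 also held less of the 14 homeostatic microglia markers, a summed level of 753 CPM against 1408 and 1199 CPM in the other 2 libraries of its group. Although the cultures are labelled as neurons, all 12 astrocyte markers and all 14 homeostatic microglia markers were detected beside the 16 neuronal ones.

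With cocaine, 29 of the 15890 genes had a limma FDR under 0.05 (percent called 0.183), 26 lower (0.164) and 3 higher (0.0189). The lower genes were led by immediate-early genes (Npas4, Fosb, Nr4a1, Fos), the CREB-inducible kinase gene Sik1, the perineuronal net proteoglycan Acan and the activin subunit Inhba. Their median log2 fold change was −1.0, and the largest fall was that of Npas4. The 3 and 3 libraries of each of the 29 genes did not overlap, which was also true of 13.3% (lower) and 14.7% (higher) of all genes tested. Before adjustment 2192 genes had a p under 0.05, which is 13.8% of those tested. With 3 and 3 libraries the smallest two-sided p of an exact permutation test is 0.1. The limma test rests on a spread pooled over all 16 groups, and limma fitted to these 6 libraries alone called 1 gene, Ptgs2. The count was 12 without Tat-Senicapoc replicate 1, all of them among the 29, and 8 without Tat-Cocaine-Senicapoc replicate 1. It was 10 and 24 without Tat-Cocaine-Senicapoc replicates 2 and 3, and 14 and 12 without Tat-Senicapoc replicates 2 and 3. Fold changes are on the scale of log2(CPM + 0.5), which understates the change of genes with low values.

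Fosb, a partner of Jun proteins in the AP-1 factor, stood at 10.2, 22.1 and 11 CPM in the Tat-Senicapoc libraries and at 1.90, 0.912 and 2.20 CPM in the Tat-Cocaine-Senicapoc libraries. The lowest library without cocaine was thus well above the highest with it. Fosb fell by 2.75 on the log2 scale (SE 0.454, limma FDR 0.00227). Npas4, a transcription factor gene that answers neuronal calcium entry, was measured at 11.5, 24.4 and 16.2 CPM without cocaine and at 1.6, 1.04 and 2.56 CPM with it. Npas4 fell by 2.99 on the log2 scale (SE 0.609, limma FDR 0.0225), and its FDR was 0.0343 to 0.236 when 1 of the 6 libraries was left out. Replicate 2 was the highest library of its group without cocaine and the lowest with it for both genes.

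Nr4a1, which encodes the orphan nuclear receptor Nur77, had the smallest p of all genes. It was at 24.6, 34.4 and 33.9 CPM without cocaine and at 8.78, 6.14 and 10.3 CPM with it (log2 fold change −1.83, SE 0.274, limma FDR 0.00151). Fos was the most highly expressed of the 4 immediate-early genes that passed the test, at 45.8, 72.4 and 54.4 CPM without cocaine. With cocaine its 3 libraries lay close together at 26.5, 24.1 and 26.4 CPM. Fos fell by 1.13 on the log2 scale (SE 0.186, limma FDR 0.00227). Nr4a1, Fos and Fosb kept an FDR under 0.05 whichever of the 6 libraries was left out.

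Of the 19 immediate-early genes tested, 4 fell, 0 rose and 15 did not pass the test, and the median log2 fold change of the list was −0.64, against 0.04 over all genes tested. The libraries of 12 of the 19 did not overlap and were lower with cocaine, beside 13.3% of all genes tested. Nr4a3, a relative of Nr4a1, was at 22.6, 27.2 and 26.4 CPM without cocaine and at 8.0, 5.18 and 13.1 CPM with it, and missed the threshold (log2 fold change −1.57, limma FDR 0.0565). Arc, which encodes a protein of synaptic scaling, was at 11.6, 31.7 and 26.5 CPM against 5.15, 3.52 and 7.19 CPM (−1.97, limma FDR 0.126). Egr4 (9.58, 9.64 and 9.19 CPM against 2.81, 1.33 and 3.30 CPM, −1.81, limma FDR 0.0760), Egr3 (−1.27, 0.215), Nr4a2 (−0.70, 0.177), Egr2 (−0.64, 0.349), Fosl2 (−0.58, 0.251) and Dusp1 (−0.45, 0.322) were also lower in all 3 libraries with cocaine, without passing the test. The libraries of Junb, Ier2, Egr1, Ier5, Fosl1 and Btg2 overlapped. Junb had a log2 fold change of −0.07 (limma FDR 0.885), Ier2 of 0.03 (0.935) and Egr1 of −0.31 (0.491). Jun, at 152 to 161 CPM without cocaine, was at 174 to 195 CPM with it and did not pass the test (0.25, limma FDR 0.247).

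**Figure D1:**
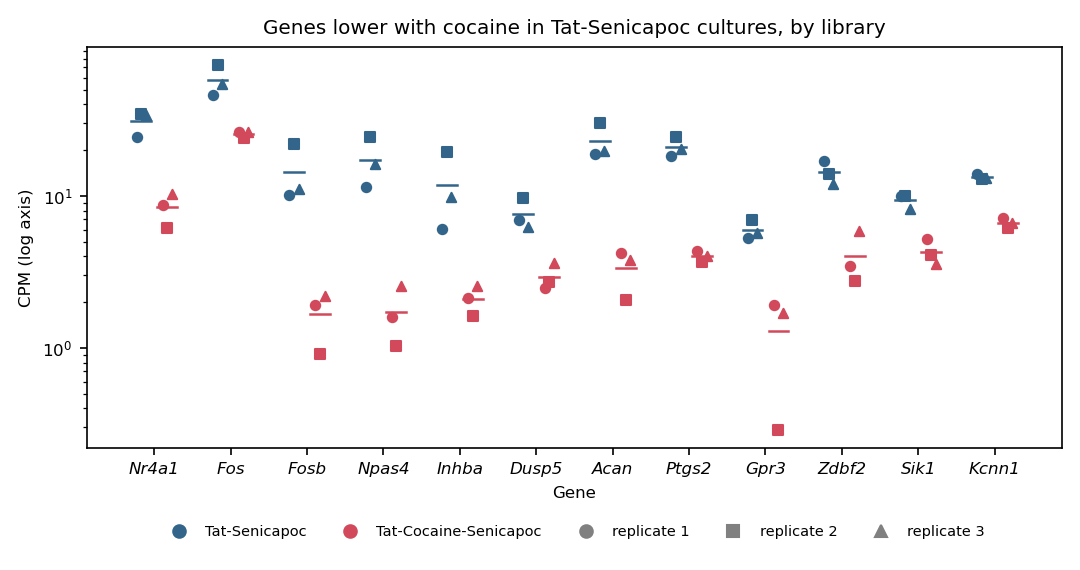
CPM (log axis) of 12 genes with an FDR under 0.05 in each Tat-Senicapoc (blue) and Tat-Cocaine-Senicapoc (red) library, with marker shapes for replicates and lines for group means. All 3 blue points lie above all 3 red points for each gene, and Gpr3 reaches 0.290 CPM in Tat-Cocaine-Senicapoc replicate 2.

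A pair of kinases that act on CREB signalling were also lower. Sik1, a salt-inducible kinase gene that is itself switched on by CREB, was at 9.97, 9.94 and 8.15 CPM without cocaine and at 5.23, 4.10 and 3.57 CPM with it. Sik1 fell (log2 fold change −1.05, SE 0.17, limma FDR 0.00227). Its relative Sik2 was at 78.7, 83.6 and 74.2 CPM against 50.9, 52.9 and 53.6 CPM (−0.58, SE 0.101, limma FDR 0.00371). The spread of Sik2 within each group was small beside the gap between the groups. Both kept an FDR under 0.05 without any 1 of the 6 libraries. Sik1 and Sik2 lie outside the rule for named genes and were chosen after their values were seen.

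The promoters of the lower genes were searched for the binding motif of CREB, since Sik1 and the immediate-early genes are textbook CREB targets. The 250 bases before the RefSeq start (build GRCr8) of 19 of the 26 lower genes were at hand, and Fos, Kcnn1, Psd3, AABR07043951.1, Stk32b and B630019K06Rik were among those with no entry. The letters TGACGT were sought on both strands. They stood in 6 of the 19 (31.6%), against 6.95% of all 33469 windows and 10.5% of the 11225 tested genes with a window. The palindrome TGACGTCA, which holds both copies of the shorter motif, stood in 2 of the 19, Zdbf2 and Braf. It stood in 1.59% of all windows and in 2.84% of the tested genes with a window. A match is a description of the letters only. The 60 bases around the matches are shown for these 6 genes, since they are the lower genes with the motif, each on its own strand with the motif in capitals.
Sik1 (chr20:9958795-9958854, - strand): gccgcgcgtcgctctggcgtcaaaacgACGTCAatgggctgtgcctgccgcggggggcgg
Sik2 (chr8:60221671-60221730, - strand): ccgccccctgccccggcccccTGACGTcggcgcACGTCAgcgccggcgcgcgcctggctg
Dusp5 (chr1:262543691-262543750, + strand): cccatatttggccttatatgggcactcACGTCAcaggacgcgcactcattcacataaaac
Zdbf2 (chr9:72203513-72203572, + strand): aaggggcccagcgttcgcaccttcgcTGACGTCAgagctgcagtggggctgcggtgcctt
Braf (chr4:69476991-69477050, - strand): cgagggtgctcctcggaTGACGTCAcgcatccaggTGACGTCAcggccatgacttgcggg
Gpr3 (chr5:150698533-150698592, - strand): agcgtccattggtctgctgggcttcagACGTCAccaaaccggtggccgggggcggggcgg
The windows of Nr4a1, Fosb, Npas4, Acan, Inhba and Ptgs2 did not hold these letters. In Braf, 2 copies of the palindrome stood within 60 bases, and in Sik2 the motif stood once in each direction.

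Among later activity genes, Dusp5 and Inhba fell. Dusp5, a nuclear phosphatase of ERK kinases, was at 6.90, 9.69 and 6.21 CPM without cocaine and at 2.47, 2.69 and 3.62 CPM with it (log2 fold change −1.23, SE 0.216, limma FDR 0.00371). Inhba, the inhibin beta A subunit that forms activin A, was at 6.05, 19.4 and 9.91 CPM against 2.12, 1.62 and 2.56 CPM (−2.11, SE 0.405, limma FDR 0.0128). The Inhba levels without cocaine differed more than 3-fold among cultures, but the lowest of them was above every library with cocaine. Leaving out 1 library gave FDRs of 0.00996 to 0.0701 for Dusp5 and of 0.00683 to 0.152 for Inhba.

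Of the 23 later activity genes tested, 2 fell, 0 rose and 21 were not called, with 22 below 0 and a median log2 fold change of −1.03. The libraries of 14 genes did not overlap and were lower, beside 13.3% of all genes tested. The granin-related Vgf was at 512, 579 and 386 CPM without cocaine and at 219, 164 and 196 CPM with it (−1.34, limma FDR 0.128). Bdnf, the brain-derived neurotrophic factor, was at 65.6, 83.8 and 58.2 CPM against 23.6, 7.88 and 23.6 CPM (−2.02, limma FDR 0.196). The synaptic pentraxin Nptx2 was at 122, 191 and 139 CPM against 55.5, 20.3 and 47.6 CPM (−1.95, limma FDR 0.142). Tat-Cocaine-Senicapoc replicate 2 was the lowest library for all 3 genes.

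Several genes of the neuronal surface and its matrix were lower. Acan, which encodes aggrecan of perineuronal nets, was at 18.9, 30.2 and 19.9 CPM without cocaine and at 4.2, 2.07 and 3.8 CPM with it (log2 fold change −2.62, SE 0.439, limma FDR 0.00227). Every library with cocaine was thus below every library without it by a wide margin, and Acan kept an FDR under 0.05 without any 1 library. Gpr3, a receptor that raises cyclic AMP without a ligand, was at 5.31, 6.92 and 5.67 CPM against 1.90, 0.290 and 1.69 CPM (−2.0, limma FDR 0.0425). Kcnn1, the small-conductance calcium-activated potassium channel SK1, was at 13.9, 12.9 and 13.1 CPM against 7.18, 6.18 and 6.68 CPM (−0.95, SE 0.177, limma FDR 0.0105). The 3 Kcnn1 values of each group agreed closely. Without Tat-Senicapoc replicate 1 the FDR was 0.0661 for Kcnn1 and 0.159 for Gpr3, and over all 6 omissions it was 0.0367 to 0.103 and 0.0460 to 0.35.

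Ptgs2, which encodes the prostaglandin-forming cyclooxygenase COX-2 and is switched on both by neuronal activity and by inflammation, was at 18.4, 24.5 and 20.4 CPM without cocaine. With cocaine it was at 4.37, 3.65 and 4.03 CPM (log2 fold change −2.25, SE 0.508, limma FDR 0.0496). Ptgs2 passed the test by a narrow margin, and its FDR was 0.0916 to 0.258 when 1 library was left out. Zdbf2, an imprinted gene, was at 16.9, 13.9 and 12.0 CPM against 3.46, 2.74 and 5.86 CPM (−1.76, limma FDR 0.0221, and 0.0211 to 0.252 with 1 library left out). Of 19 cholesterol synthesis genes 17 were below 0, with a list median of −0.29.

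Among the other falls were those of B630019K06Rik (8.37 ± 1.51 to 3.00 ± 0.953 CPM, log2 fold change −1.37, limma FDR 0.0432) and the kinase gene Stk32b (3.07 ± 0.568 to 1.22 ± 0.155 CPM, −1.05, limma FDR 0.0387; mean ± SD, n = 3). Psd3, an exchange factor for the GTPase Arf6, fell from 59.8 ± 8.85 to 38 ± 4.05 CPM (−0.64, limma FDR 0.0141). Leaving out 1 library gave FDRs up to 0.309, 0.325 and 0.219 for these 3 genes. Med14, Gpr63, Hivep1, Hivep2, Gpat3, Braf, Pcdh18, Asap2 and AABR07043951.1 made up the rest, with log2 fold changes between −0.75 (Pcdh18) and −0.35 (Med14), and these 9, like Bdnf, Nptx2 and the immediate-early genes that were not called, other than Arc, were named after their values were seen.

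The 3 rises were modest. AABR07026311.1, a locus known only by its clone name, was at 12.7, 14.8 and 13.8 CPM without cocaine and at 21.2, 22.1 and 23.4 CPM with it (log2 fold change 0.67, SE 0.112, limma FDR 0.00227). It was called without any 1 of the 6 libraries. Cpsf4, a subunit of the complex that cuts pre-mRNA before polyadenylation, rose from 24.6 ± 1.26 to 33.3 ± 0.93 CPM (0.43, limma FDR 0.0499), and was not called once a library was left out (FDR 0.0874 to 0.325). Gpr19, an orphan receptor, rose from 17.8 ± 1.87 to 23.4 ± 0.370 CPM (0.39, limma FDR 0.0432, and 0.0266 to 0.358 with 1 library left out).

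The calls that held without each of the 6 libraries in turn were those of 7 genes, Nr4a1, Sik1, Sik2, Fosb, Fos, Acan and AABR07026311.1. Dusp5 was not called without Tat-Cocaine-Senicapoc replicate 1 or Tat-Senicapoc replicate 2, and Kcnn1 not without Tat-Cocaine-Senicapoc replicate 2 or Tat-Senicapoc replicate 1. Psd3 and Med14 were not called without replicate 1 of either group. Npas4 and Inhba needed Tat-Cocaine-Senicapoc replicates 1 and 2 and Tat-Senicapoc replicates 2 and 3. A further 15 genes were called in at most 1 of the 6 omissions.

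**Figure D2:**
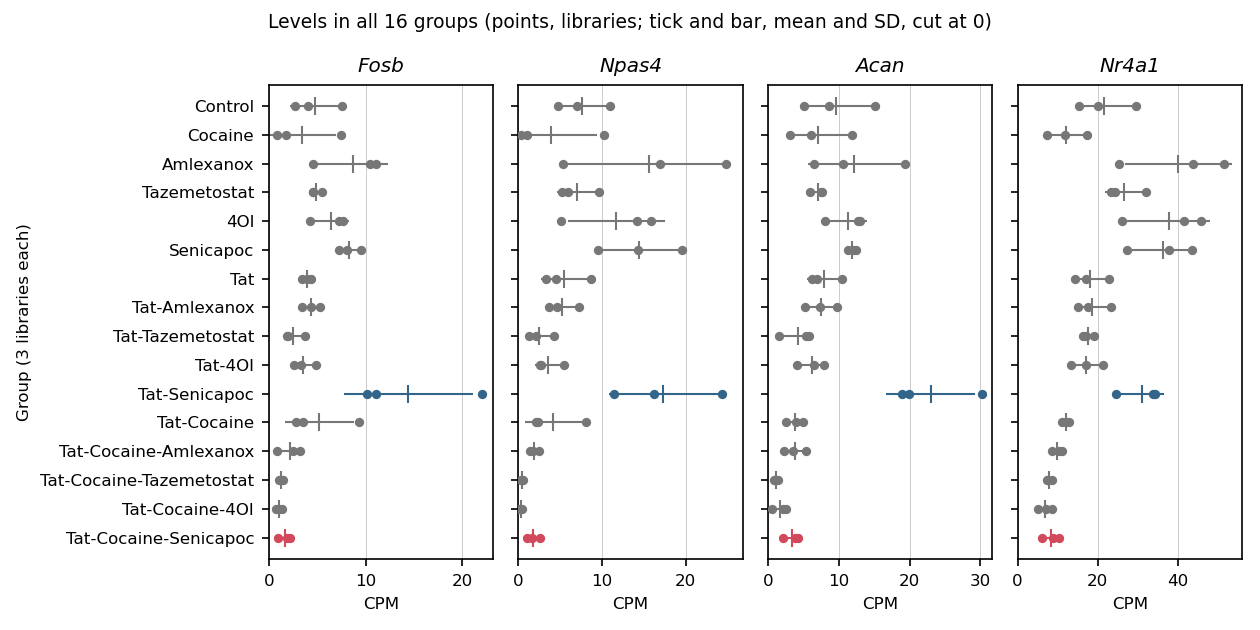
CPM of Fosb, Npas4, Acan and Nr4a1 in the libraries of all 16 groups (points), with group mean and SD (n = 3). Tat-Senicapoc (blue) has the highest mean of Fosb, Npas4 and Acan, while Tat-Cocaine-Senicapoc (red) lies among the other Tat-Cocaine groups with a compound.

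Set among all 16 groups, the level of these genes was high in Tat-Senicapoc and low in Tat-Cocaine-Senicapoc. Tat-Senicapoc was among the first 4 of 16 means for 25 of the 26 lower genes. Tat-Cocaine-Senicapoc was among the last 4 for 25 of the 26 and the lowest of all for 4. The mean of 16 of the 26 lower genes was the highest of the 16 groups in Tat-Senicapoc, and for 20 of the 26 the Tat-Cocaine-Senicapoc mean lay between those of the other 3 Tat-Cocaine groups with a compound. A call requires a gap between these 2 groups, so that extreme places for them are in part built into the choice of genes. Fosb was at 14.4 ± 6.63 CPM in Tat-Senicapoc, followed by 8.69 ± 3.61 in Amlexanox and 8.30 ± 1.12 in Senicapoc cultures, and at 3.94 ± 0.482 in Tat cultures (mean ± SD, n = 3). Its levels with Tat and cocaine were 5.22 ± 3.59 CPM without compound and 1.67 ± 0.673 with senicapoc, 2.21 ± 1.18 with amlexanox, 1.28 ± 0.228 with tazemetostat and 1.0 ± 0.33 with 4OI. The last 4 overlap within their spread.

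Acan was at 23 ± 6.26 CPM in Tat-Senicapoc cultures, above the next means of 12.2 ± 6.58 in Amlexanox and 11.9 ± 0.564 in Senicapoc cultures. Nr4a1 differed from these, since Amlexanox (40.2 ± 13.4 CPM), 4OI (37.7 ± 10.4 CPM) and Senicapoc cultures (36.2 ± 8.28 CPM) all had higher means than Tat-Senicapoc (31 ± 5.54 CPM), within the spread. Fos was at 58.8 ± 8.47 CPM in Amlexanox and 57.5 ± 13.6 CPM in Tat-Senicapoc cultures, which overlap, and Tat-Cocaine-Senicapoc had the lowest mean of the 16 groups (25.7 ± 1.32 CPM). The means just above it were those of Tat-Cocaine-Tazemetostat (26.8 ± 0.876 CPM) and Cocaine (27.9 ± 7.89 CPM), again within the spread.

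Markers of neurons moved with the activity genes. All 16 neuronal markers tested were lower on average with cocaine, but 0 passed the test (median log2 fold change −0.62). The libraries of 12 of them did not overlap, beside 13.3% lower without overlap among all genes tested. Their summed level was 5797, 4852 and 4798 CPM in the Tat-Senicapoc libraries and 3303, 2877 and 4108 CPM in the Tat-Cocaine-Senicapoc libraries, so that the groups did not overlap. The GABA-synthesizing enzymes Gad2 (588, 467 and 479 CPM against 239, 186 and 285 CPM, limma FDR 0.167) and Gad1 (520, 492 and 484 CPM against 275, 236 and 323 CPM, limma FDR 0.186) were among the clearest. In bulk RNA, fewer cells of a type and less RNA per cell cannot be told apart. The part of the neuronal markers in the falls was not tested. The covariate described next cannot decide it, since that marker level itself differed between the groups. Its mean log2 value was 7.76 to 8.07 in the Tat-Senicapoc and 6.97 to 7.54 in the Tat-Cocaine-Senicapoc libraries.

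With the mean neuronal marker level of each library as a covariate, an alternative added after the data were seen, 20 of the 29 genes kept an FDR under 0.05, 19 of them lower. Fosb was then at −2.21 (limma FDR 0.00501), Nr4a1 at −1.52 (0.00271), Fos at −1.04 (0.00731), Npas4 at −2.24 (0.0404) and Acan at −1.96 (0.00271). The 9 genes not called were Ptgs2, Stk32b, Cpsf4, Gpr19, Asap2, Braf, Hivep2, Pcdh18 and AABR07043951.1. Several of these changed little in size, with log2 fold changes of −0.40 for Braf (limma FDR 0.0521, −0.43 without the covariate), −0.36 for Asap2 (0.0724, −0.41), 0.34 for Gpr19 (0.0673, 0.39) and −1.90 for Ptgs2 (0.0861, −2.25). The median of the immediate-early list changed little (−0.61), and that of the later activity genes came to −0.22.

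**Figure D3:**
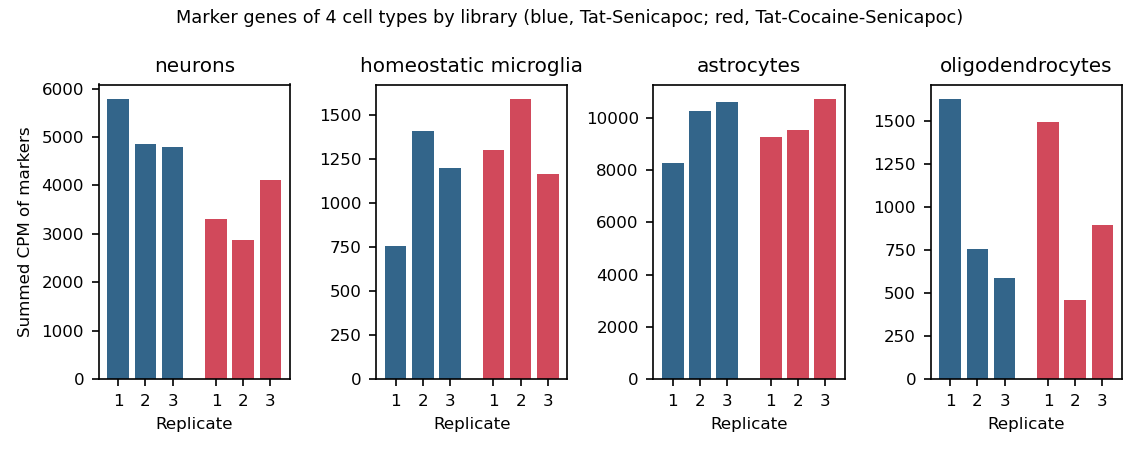
Summed CPM of the markers of neurons (16), homeostatic microglia (14), astrocytes (12) and oligodendrocytes (12) in each Tat-Senicapoc (blue) and Tat-Cocaine-Senicapoc (red) library. Neuronal markers are lower in all 3 red libraries, whereas Tat-Senicapoc replicate 1 is lowest for microglia and highest for oligodendrocytes.

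Genes of neuronal excitability were also lower on average without any call. All 21 glutamate and GABA-A receptor subunits had a log2 fold change below 0 (median −0.50, 9 without overlap), among them the NMDA receptor subunits Grin1 and Grin2b (−0.65 and −0.90, limma FDR 0.292 and 0.264). Of 19 sodium and calcium channel genes 18 were below 0 (median −0.41, 10 without overlap), and the T-type channel gene Cacna1g was at 42.7, 41.3 and 38.8 CPM against 21.8, 20.7 and 27.2 CPM (−0.81, limma FDR 0.108). Of all genes tested, 13.3% were lower without overlap. Both lists moved with the neuronal marker sums given above, and the receptor list had a median of 0.15 with the marker level as a covariate.

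The targets of the drugs themselves showed no called difference. Kcnn4, the channel that senicapoc blocks, was at 4.17, 4.34 and 3.78 CPM without cocaine and at 4.67, 5.97 and 5.08 CPM with it. The libraries did not overlap, but the difference was small (log2 fold change 0.32, SE 0.288, limma FDR 0.613). Of the 10 potassium channel genes tested around Kcnn4, Kcnn1 alone was called, and the large-conductance channel Kcnma1 was at 38.7, 30.6 and 28.2 CPM against 16, 13.2 and 18.8 CPM (−1.0, limma FDR 0.168). The transporters that cocaine blocks, Slc6a2, Slc6a3 and Slc6a4, did not reach the minimum for testing, with at most 0.180, 0.298 and 0.357 CPM in any of the 48 libraries. Among 20 monoamine-related genes tested 0 were called, the striatal phosphodiesterase Pde10a being nearest (26.9, 24.4 and 22.8 CPM against 13.8, 9.58 and 15.7 CPM, −0.92, limma FDR 0.108).

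Microglial and inflammatory genes were higher on average, and again none rose past the threshold. All 14 homeostatic microglia markers had a log2 fold change above 0 (median 0.42), 2 of them without overlap, beside 14.7% of all genes tested. Their summed level was 753, 1408 and 1199 CPM without cocaine and 1301, 1591 and 1165 CPM with it, so that the groups overlapped and the low value was that of Tat-Senicapoc replicate 1. The summed levels of border macrophage markers (586 to 1195 CPM without and 1070 to 1379 CPM with cocaine), complement genes and acute phase genes also overlapped. Those of the lists named next did not. They were 12954 to 14644 CPM without and 15954 to 16656 CPM with cocaine for the activated microglia markers, and 3867 to 4874 against 5288 to 6695 CPM for the NF-kB targets. They were 1693 to 2025 against 2199 to 2668 CPM for chemokines, 334 to 471 against 490 to 661 CPM for cytokines and 2172 to 2394 against 2683 to 3181 CPM for interferon response genes. Tat-Senicapoc replicate 1 was the lowest library for each of these sums. The antigen presentation sum did not overlap either, at 4573, 4134 and 4191 CPM without cocaine and 5366, 5191 and 5053 CPM with it. For that sum Tat-Senicapoc replicate 1 was the highest library of its group. Of 19 NF-kB target genes tested 18 were above 0 and 1, Ptgs2, fell. Gene by gene, 10 of the 19 NF-kB targets, 12 of 26 interferon response genes, 8 of 22 chemokines, 6 of 18 activated microglia markers and 3 of 16 cytokines were higher without overlap, beside 14.7% of all genes tested. The chemokine Ccl20 was at 28.2, 42.8 and 46.2 CPM against 78.2, 111 and 97.2 CPM (1.30, limma FDR 0.275). Medians were 0.41 for 22 chemokines, 0.33 for 16 cytokines and 0.24 for 26 interferon response genes, with 0 calls. Acod1, which makes itaconate in activated microglia, was at 4.37, 22 and 14.4 CPM against 10.2, 38.8 and 11.6 CPM (0.55, limma FDR 0.767), with wide spread in both groups.

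A further list with 1 direction was that of glycolysis and hypoxia genes. All 21 tested were below 0 (median −0.38), 14 without overlap, beside 13.3% of all genes tested, and 0 were called. The platelet-type phosphofructokinase Pfkp was at 160, 136 and 126 CPM without cocaine and at 79.9, 79.6 and 96.3 CPM with it (−0.72, limma FDR 0.0900).

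**Figure D4:**
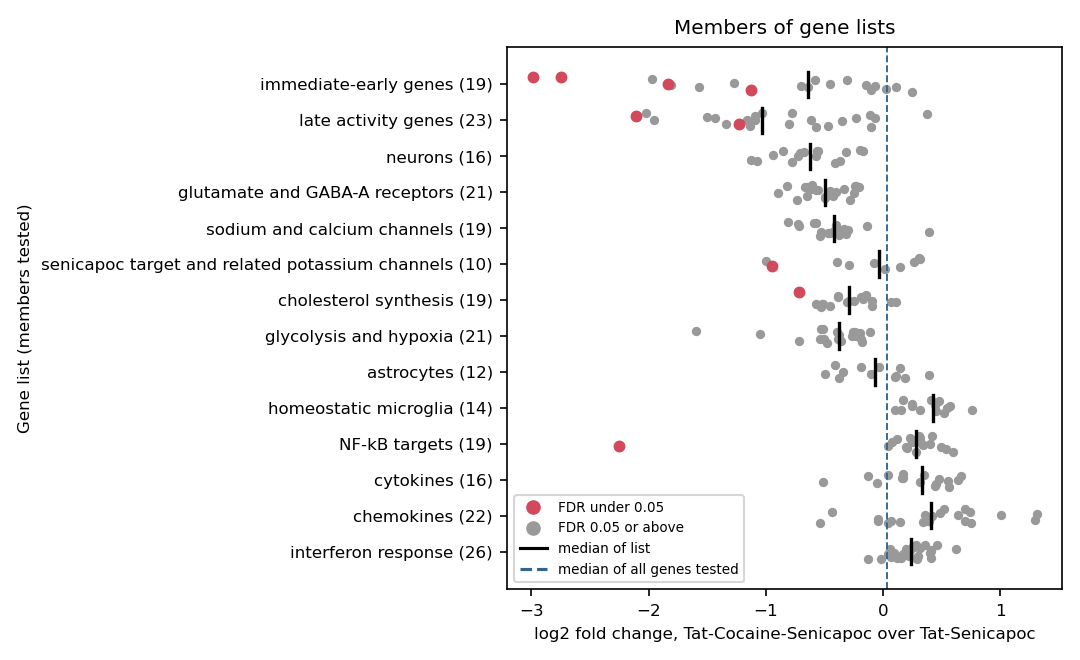
Log2 fold change with cocaine (x axis) of the tested members of 14 gene lists (points; red, FDR under 0.05), with the list median (black) and the median of all genes tested (dashed). Activity and neuronal lists lie left of the dashed line and microglial and inflammatory lists right of it, with Ptgs2 as the single red point among NF-kB targets.

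Cocaine was also added in 5 other settings of the series that share no library with this comparison. The 26 lower genes had a log2 fold change below 0 in 18 cases in cultures with Tat and no compound, 25 with Tat and amlexanox, 26 with Tat and tazemetostat, 24 with Tat and 4OI and 24 with cocaine alone. Over all genes tested, 56.3%, 48.1%, 47.8%, 49.6% and 48.9% were below 0 in these comparisons. The medians of the 26 genes were −0.10, −0.35, −0.47, −0.51 and −0.46, each smaller than the −1.0 seen with senicapoc, where the genes were chosen. None of the 29 genes was called in the 4 comparisons with Tat, which called 3 (0.0189%), 0, 0 and 0 genes in all. Their unadjusted p was under 0.05 for 1297 (8.16%), 258 (1.62%), 1365 (8.59%) and 1473 (9.27%) genes. Of the 26 lower genes, 3, 9, 17 and 17 had such a p with a log2 fold change below 0. Another 2, 0, 0 and 0 had it with a log2 fold change above 0. With cocaine alone 2 of the 29 were called, among 32 genes in all (0.201%), 26 lower (0.164%) and 6 higher (0.0378%), and 1996 (12.6%) before adjustment. There 16 of the 26 genes lower with senicapoc had an unadjusted limma p under 0.05 with a log2 fold change below 0, and 0 above 0.

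Npas4 had a log2 fold change of −0.49 without compound, −1.24 with amlexanox, −1.59 with tazemetostat, −2.35 with 4OI and −1.70 with cocaine alone. Acan was at −0.97, −0.92, −1.44, −1.70 and −0.48 in the same order, and Nr4a1 at −0.55, −0.86, −1.11, −1.26 and −0.84. Fosb (0.20, −0.95, −0.73, −1.38 and −0.73) and Inhba (0.87, −0.44, −0.47, −0.17 and 0.30) were above 0 without compound. Across the 15890 genes, which are not independent of each other, log2 fold changes correlated with those in senicapoc cultures with Pearson's r of −0.37 without compound, 0.44 with amlexanox, 0.74 with tazemetostat, 0.69 with 4OI and 0.47 with cocaine alone. The neuronal marker median in these comparisons was 0.23, −0.08, −0.71, −0.69 and −0.76.

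**Figure D5:**
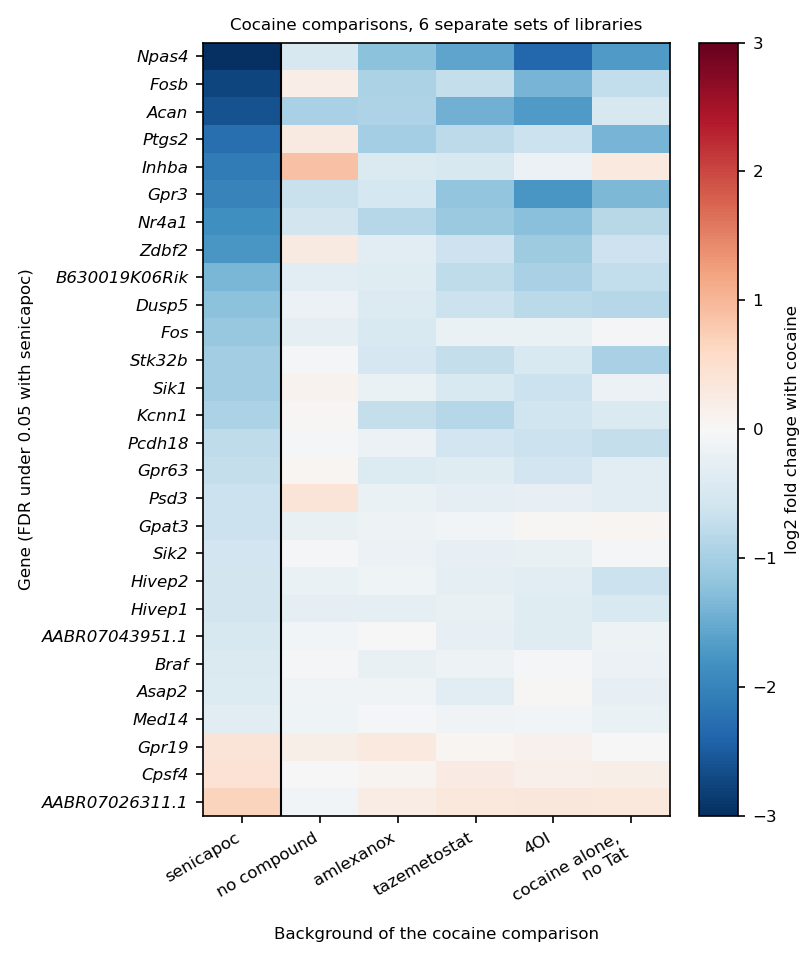
Log2 fold change with cocaine (colour) of 28 genes called with senicapoc (rows) in the 6 cocaine comparisons (columns), which share no library. Lower values with cocaine are the more frequent among the lower genes in every column, and without compound Inhba has 0.87 and Psd3 0.38.

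Whether the cocaine effect differed with senicapoc was tested as a difference of differences. Against cultures with Tat and no compound, 5 of 15890 genes passed a limma FDR of 0.05 (percent called 0.0315), all with a lower cocaine effect under senicapoc. Before adjustment the p of 2643 genes was under 0.05. The count was 0 with the 12 libraries fitted alone and when Tat-Cocaine-Senicapoc replicate 1, Tat replicate 2 or Tat-Cocaine replicate 1 was left out, and 43 when Tat-Cocaine replicate 3 was. They were Nptx1, Psd3, Edrf1, Inhba and Gucy2g. The median log2 fold change of the neuronal markers with cocaine was −0.62 with senicapoc and 0.23 without compound. The part of the neuronal markers in these differences was not tested. Nptx1, a pentraxin that gathers glutamate receptors at synapses, went from 18.4, 11.8 and 23.7 CPM in Tat to 76.9, 70.6 and 41 CPM in Tat-Cocaine cultures. With senicapoc it went from 43.9, 33.9 and 29.1 to 16.3, 20.2 and 23.8 CPM, so that the direction was opposite in the 2 settings and the libraries overlapped in neither. The difference of the log2 fold changes was −2.59 (SE 0.439, limma FDR 0.0136).

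Psd3 went from 46.7, 35.7 and 45.4 CPM in Tat to 60.6, 56.0 and 49.4 CPM in Tat-Cocaine cultures, and from 70.0, 53.8 and 55.7 to 33.3, 40.3 and 40.4 CPM with senicapoc (difference −1.02, SE 0.178, limma FDR 0.0136). Inhba went from 2.84, 2.25 and 2.32 to 4.81, 3.27 and 7.41 CPM without compound, against the fall described above with senicapoc (difference −2.98, SE 0.573, limma FDR 0.0323). The libraries of both genes thus lay in opposite order in the 2 settings, without overlap. Without compound, however, neither rise was called. The log2 fold change there was 0.38 for Psd3 (limma FDR 0.467) and 0.87 for Inhba (limma FDR 0.606). The share of all genes without overlap was not taken for that comparison. For the immediate-early genes the test did not reach the threshold. The difference was −2.94 for Fosb (95% interval −4.25 to −1.64, limma FDR 0.0748), −1.29 for Nr4a1 (−2.07 to −0.50, 0.240) and −0.83 for Fos (−1.36 to −0.29, 0.254).

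Against the mean of the other 4 Tat backgrounds, 0 genes passed a limma FDR of 0.05, while the unadjusted p of 549 (3.46%) was under 0.05. With voom weights the count was also 0. The genes with the smallest p were the deubiquitinase Usp9x (difference −0.28, SE 0.069), Inhba (−2.05, SE 0.453), Fos (−0.84, SE 0.208), Fosb (−2.03, SE 0.508) and Edrf1 (−0.47, SE 0.119), each with an FDR of 0.885. A cocaine effect particular to senicapoc cultures was therefore not shown for any gene by this test.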

How the data were processed

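RNA-seq libraries were made from 16 groups of 3 cultures. The authors deposited CPM signal per gene after TMM scaling; reads had been aligned with STAR and unique reads counted with featureCounts. The submitters' processing notes name STAR 2.7.2, Trim Galore 0.4.5, SAMtools 1.5 and Subread 1.5.3. Because the sources name different rat builds, the only coordinates given are RefSeq promoter windows (GRCr8). The deposited fold changes, p-values and group means were not used. The steps between CPM values imply depths of 17.5 to 29.1 M reads, but only 84.6% to 86.8% of low values came within 0.02 of a whole read, so that no count test was run.

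Genes with at least 0.5 CPM in 3 libraries were tested with limma 3.58.1 in R 4.3.3 on log2(CPM + 0.5). The model had 1 mean per group over all 48 libraries and an intensity trend, with Benjamini-Hochberg FDR under 0.05. On simulated data for cocaine in Tat-Senicapoc cultures (15867 genes), 37.3% of 1.5-fold, 62.7% of 2-fold and 86.4% of 4-fold changes were called in the right direction, and 3 of 127 calls were of unchanged genes. The simulated noise was independent between genes, without deviations shared by many genes of a library. These rates may therefore not hold for the real libraries, whose genes share such deviations. In 34 lists with 588 genes, members were counted by direction. The members and lists were chosen with earlier results of these data known. Genes were named by a rule: the 12 largest falls and rises among called genes of at least 1 CPM without overlap, the 3 members of each list with the smallest p, the 5 genes with the smallest p in each difference contrast, and the drug targets and a few markers. Alternatives were another pseudocount, filter, scaling, variance model and weighting, a replicate block, the contrast's libraries alone, a fold minimum and the omission of each library. Weights from voom and a neuronal marker covariate were added after the data were seen. Single values of a few genes are not reported here.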

Additional observations from a re-analysis of the deposited data

Results flagged for a closer look

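The cocaine effect (log2 scale) differed between cultures with senicapoc and those without compound for 5 genes, by the interaction contrast in limma. The difference was −2.59 for Nptx1 (SE 0.439, FDR 0.0136), −1.02 for Psd3 (SE 0.178, FDR 0.0136), −2.98 for Inhba (SE 0.573, FDR 0.0323), −0.78 for Edrf1 (SE 0.15, FDR 0.0323) and −1.25 for Gucy2g (SE 0.243, FDR 0.0323). Neuronal markers also moved in opposite directions in the 2 settings (median −0.62 and 0.23), and their part in these differences was not tested.

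Edrf1 was at 19.6, 17.6 and 20.8 CPM in Tat and at 27, 26.6 and 21.4 CPM in Tat-Cocaine cultures. With senicapoc it was at 23.4, 22.7 and 22.1 CPM without cocaine and at 16.6, 17.1 and 16.9 CPM with it. Gucy2g, a guanylate cyclase gene, lay near or below the level of 3 reads in the Tat, Tat-Senicapoc and Tat-Cocaine-Senicapoc libraries. It was at 0.724, 1.19 and 0.684 CPM in the Tat-Cocaine and at 0.281, 0.641 and 0.248 CPM in the Tat-Cocaine-4OI libraries. It was at 0.152, 0 and 0.0473 CPM in Tat, at 0.149, 0.0974 and 0.0901 CPM in Tat-Senicapoc and at 0.173, 0.0829 and 0.0915 CPM in Tat-Cocaine-Senicapoc libraries. Its difference thus rests on the Tat-Cocaine libraries and not on the cultures with senicapoc.

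The count of 5 was 0 when Tat-Cocaine-Senicapoc replicate 1, Tat replicate 2 or Tat-Cocaine replicate 1 was left out. It was 43 on omission of Tat-Cocaine replicate 3, with 27 of these higher. It was 13 without Tat replicate 3, 1 without Tat-Senicapoc replicate 1, and 2 without Tat-Cocaine-Senicapoc replicate 2 or Tat-Senicapoc replicate 2 or 3.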

How the results depend on the processing

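For cocaine in Tat-Senicapoc cultures the count of 29 was 8 to 24 when 1 library was omitted, and 24 to 36 with another pseudocount, filter, scaling or trend setting. The count was 1 with the 6 libraries fitted alone and 13 with an absolute log2 fold change of at least 1. Array weights gave 2058, but their estimation stopped before converging. With the neuronal marker level as a covariate, chosen like voom weights after the data were seen, the count was 47 (20 higher, 27 lower). The replicate numbers were not taken as pairs, since 2 of 3 same-numbered correlations were over 0.1 and 3 of 6 libraries correlated best with their own number. With the replicate number as a block the count was 23 over the 6 libraries' numbers and 102 over all 48. For the difference in cocaine effect, with senicapoc against without compound, the count of 5 became 9 at a pseudocount of 1 CPM, 2042 with array weights, 38 with the block over all 48, 0 with the 12 libraries alone, 2 with voom weights, 8 with the covariate, and 0 to 43 with 1 library omitted. Against the other 4 backgrounds the count was 54 with array weights and 0 in each omission. Acod1 (0.55) turned to −0.055 with array weights and −0.45 with the covariate, and ranged from −0.090 to 1.02 with 1 library omitted, below 0 without Tat-Cocaine-Senicapoc replicate 2 or Tat-Senicapoc replicate 1. Gucy2g, at the level of 3 reads, turned to −0.011 with voom weights and −0.012 with the covariate, and ranged from −0.059 to 0.050 with 1 library omitted. The causes were not tested. At these depths 0.5 CPM was 10.1 to 12.1 reads, which limits precision for the lowest genes.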

Other observations

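Several lists of cell state and cell type held 0 calls in either direction. Of 19 cell cycle genes 18 were above 0 with cocaine (median log2 fold change 0.38), as were 13 of 14 endoplasmic reticulum chaperones (0.24), 18 of 18 antigen presentation genes (0.29), 17 of 19 complement genes (0.24) and 16 of 20 collagen and matrix genes (0.26). The medians were 0.32 for 13 acute phase genes, 0.23 for 18 markers of activated microglia and 0.45 for 10 of border macrophages. Over all genes tested 8987 of 15890 were above 0.

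Astrocytes and the oligodendrocyte lineage showed small medians. They were −0.07 for 12 astrocyte markers, −0.06 for 12 reactive astrocyte genes, −0.10 for 12 oligodendrocyte markers and −0.15 for 7 markers of their precursors. The summed oligodendrocyte level was 1631, 756 and 590 CPM without cocaine and 1493, 462 and 896 CPM with it, so that it differed more within the groups than between them. Medians were 0.36 for 9 endothelial and pericyte, 0.04 for 9 fibroblast and 0.10 for 14 motile cilia genes.

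Stress list medians were 0.03 for 21 Nrf2 targets, 0.03 for 10 heat shock genes and 0.08 for 13 genes of the mitochondrial genome. They were 0.14 for 17 p53 and apoptosis genes and −0.10 for 17 ATF4 targets. Without overlap, 8 p53 and apoptosis genes were higher and 2 lower, and 3 ATF4 targets were higher and 6 lower. Of all genes tested, 14.7% were higher and 13.3% lower without overlap. None of the list members was called. Ddit4, an inhibitor of mTORC1 signalling on the ATF4 list, was at 140, 148 and 92.5 CPM without cocaine and at 65.5, 63.6 and 58.6 CPM with it, with no overlap (log2 fold change −0.99, limma FDR 0.0935).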
